A study of Xenopus laevis with 6 samples.

Results

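The subject is the testis of unexposed control Xenopus laevis, the African clawed frog, at postnatal day 193. Its members are the 3 control libraries of a series of 6. They were chosen by their sample labels alone, and no measured value was used. The other 3 libraries, from animals kept in 100 µg/L atrazine for 180 days, were not analysed here. The labels name no exposure for the controls beyond the control condition, and they give neither strain nor genotype. Testes had been flash-frozen and RNA taken with Trizol. Stranded libraries (TruSeq Stranded Total RNA) were made after removal of ribosomal RNA, so that transcripts without a poly(A) tail were kept. Nothing in the labels ties a library to a single animal or to a pool of testes, so the SDs below measure the spread between these libraries, which may be technical.

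A frog testis is a bundle of tubules in which cysts of germ cells develop in step. Spermatogonia divide, spermatocytes pass through meiosis, and spermatids condense their nuclei and build a flagellum. Sertoli cells line each cyst and feed the germ cells, Leydig cells between the tubules make androgens, and contractile peritubular cells surround the tubules. Xenopus laevis carries paired chromosome sets from an ancient hybridization, the long (L) and the short (S) set, so that many genes exist as an L copy and an S copy.

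Gene levels are given as FPKM, reads per length of transcript and per size of library. The mRNA table holds 31598 rows, and the estimated reads behind it numbered 17018693 in control replicate 1, 16841770 in control replicate 2 and 13784632 in control replicate 3. Back-splice junction reads, which mark circular RNAs (circRNAs), numbered 69338, 86265 and 61193 in the same order. Pearson correlations of log2(FPKM + 1) were taken across the 21355 rows with a mean of at least 1 FPKM. They were 0.957 between control replicates 1 and 2, 0.973 between 1 and 3, and 0.978 between 2 and 3. Rows are not independent replicates, so these values only describe how alike the libraries were.

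About 2 in 3 mRNA rows were measured at a mean of 1 FPKM or more, and a small set of short transcripts for the ribosome, chromatin and the respiratory chain held the top of the ranking. In the separate libraries 21111, 21380 and 21318 rows reached 1 FPKM. The median row stood at 4.31 FPKM, 10790 rows reached a mean of 10 FPKM, 793 reached 100 and 41 reached 1000, while 853 rows were listed at 0 in all 3 libraries. The 100 highest rows held 19.7%, 20.6% and 18.6% of all FPKM in control replicates 1, 2 and 3. Of these 100 rows, 72 were cytosolic ribosomal proteins, 6 were histones, 4 were genes of the mitochondrial genome and 2 were sperm-specific nuclear proteins. Over all their 172 rows the ribosomal proteins held 18.1%, 17.9% and 17.2% of FPKM, and the 107 histone rows held 5.58%, 4.27% and 3.66%.

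The highest row was a histone H4 gene, LOC108705162, on an unplaced sequence, with 6762, 6868 and 5923 FPKM in control replicates 1, 2 and 3. The next was LOC100192369, annotated as sperm-specific nuclear basic protein 1, on chromosome 4S at 108395944 to 108396617 on the plus strand, with 4138, 7425 and 4122 FPKM. Proteins of this kind take the place of histones in condensing sperm nuclei. Control replicate 2 was high for this gene and the other libraries lay close together. A further sperm-specific basic nuclear protein, sp4-c, had 713, 1207 and 856 FPKM, again highest in control replicate 2.

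The row tmem254.L, a transmembrane protein gene that lies on chromosome 7S in the file, had 1870, 4360 and 2895 FPKM. A second H4 row, LOC108703479, had 3700, 3201 and 1782 FPKM, and h2afx.L, the H2A variant that is phosphorylated at DNA breaks and in meiosis, had 3630, 2960 and 1723 FPKM. Both of these histone rows were lowest in control replicate 3. The row h2afx.L is unplaced and is named h2ax.lS in v10.1. Another row, LOC108696445 on chromosome 7L, is named h2ax.L in v10.1 and had only 39.5, 18.8 and 21.9 FPKM. Histone genes exist as near-identical copies, and no source used here gives how reads were assigned among them, so levels of single histone rows are uncertain. The mitochondrial COX1, the catalytic subunit of cytochrome c oxidase, had 2713, 2483 and 2618 FPKM, with COX2, COX3 and ATP8 at means of 1426, 1413 and 1391 FPKM.

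The other members of the 25 highest rows were 15 ribosomal protein rows, between 1230 and 1904 FPKM, and a ubiquitin row, LOC108708852, named ubb.S in the v10.1 annotation, with 1286, 1280 and 1233 FPKM. The ribosomal rows were led by rps12.L_2, an unplaced copy of rps12.L, at 1904 ± 100.6 FPKM (SD, n = 3), rplp1.L at 1622 ± 66.4 and rpl34.L at 1532 ± 66.6. Some of these levels rest on few reads because the rows are short: rpl35a.L reached 1351 FPKM from a mean of 273 reads and the second rps12.L row, on chromosome 5L, reached 1254 FPKM from 151 reads. Among the 100 highest rows, 7 ranked below place 1000 when rows were ordered by reads instead.

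**Figure D1:**
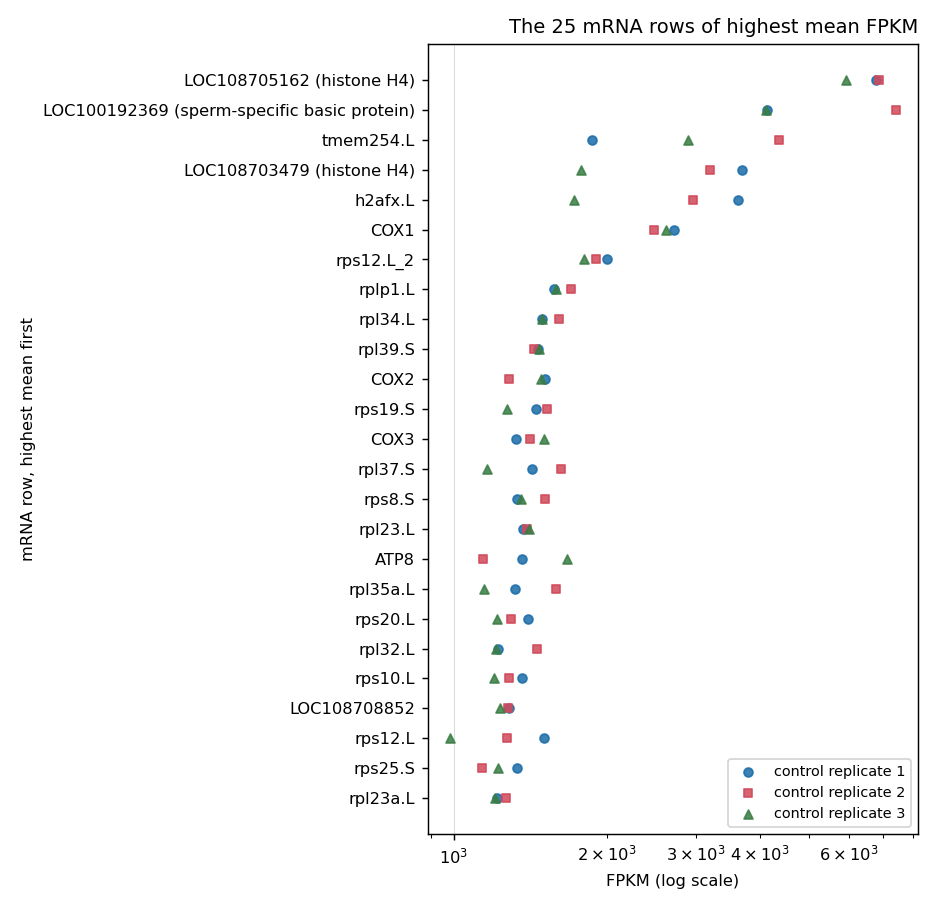
FPKM (log scale) of the 25 mRNA rows with the highest mean, in each of the 3 control libraries (1 point per library, no error bars). Ribosomal protein rows sit close together, while LOC100192369 (4138, 7425 and 4122 FPKM) and tmem254.L (1870, 4360 and 2895 FPKM) spread widely.

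Ordered by reads, without division by length, COX1 came first with a mean of 58790 reads and LOC100192369 second with 42911. The polyubiquitin row LOC108707155 (ubc.S in v10.1) followed with 33915 reads. These and the following rows were picked after their values were seen. A piwi-like protein 1 row, LOC108716375 on chromosome 1L, ranked 6 by reads and had 618, 326 and 354 FPKM. Piwi proteins bind the small piRNAs that silence transposons in germ cells. Germ cell and centrosome genes also stood among the 25 highest by reads: pcm1.L ranked 12, tdrd6.L 17, the nuclear envelope gene syne1.L 18 and dazl.L 21.

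The lists of cell type genes and their place against all rows are given next. The median of a list is set beside the median of all mRNA rows, 4.31 FPKM, as a description and without a test. In bulk tissue a low level can mean few cells of a type or little RNA per cell, and these cannot be told apart.

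Genes of the germline, which work in germ granules and piRNA handling, stood highest among the cell type lists. The 18 measured rows of the germline list had a median of 102 FPKM, 17 of them reached 10 FPKM and 10 reached 100. With v10.1 names for LOC rows the median was 75.3 FPKM over 31 rows. The RNA-binding protein gene dazl.L, needed for germ cell development in vertebrates, had 456, 472 and 484 FPKM, so that its 3 libraries hardly differed. The Vasa helicase gene ddx4.L, on chromosome 1L, had 424, 263 and 333 FPKM, highest in control replicate 1 and lowest in control replicate 2.

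The gene ybx2, whose product packages stored messages in germ cells, had 255, 390 and 366 FPKM from its L copy and 384, 511 and 395 FPKM from its S copy. The piRNA factor gtsf1.L had 345, 207 and 253 FPKM and the Tudor domain gene tdrd6.L had 165, 131 and 145 FPKM. All of these except ybx2 and dazl.L were lowest in control replicate 2. At the other end nanos1.L, a repressor of translation in early germ cells, averaged 0.0643 FPKM. Rows with only a LOC number in the file added more germline genes through their v10.1 names: mael.L averaged 125 FPKM, piwil2.L 118, rnf17.S 109 and ddx4.S 84.0.

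Spermatogonial genes were lower, with a median of 10.04 FPKM over 19 rows, and 6.83 FPKM over 32 rows with v10.1 names for LOC rows. The deubiquitinase gene uchl1.L, a mark of spermatogonia in mammals, had 226, 166 and 189 FPKM. Its row lies on chromosome 1S and is uchl1.S in v10.1. LOC108698136 on 1L, which is uchl1.L in v10.1, had 198, 152 and 166 FPKM. The transcription factor dmrt1, which maintains testis fate in vertebrates, had 134, 137 and 140 FPKM from its L copy and 36.5, 46.0 and 43.8 FPKM from its S copy, so the copies did not overlap in any library. The receptor gene kit averaged 14.0 FPKM from the L copy and 30.3 FPKM from the S copy. The cell surface gene epcam.S had 43.5, 17.9 and 31.2 FPKM, a wide range with control replicate 2 lowest. Cyclin D2 had means of 30.8 FPKM for ccnd2.L and 32.1 FPKM for ccnd2.S.

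Meiotic genes had a median of 30.2 FPKM over 12 rows, of which 10 reached 10 FPKM. The chromosome axis gene hormad1.S, on chromosome 8S, had 218, 127 and 137 FPKM, and the synaptonemal complex gene sycp3.L had 120, 129 and 127 FPKM. Control replicate 1 stood well above the others for hormad1.S, whereas sycp3.L was level across all 3. The helicase gene mcm8.L averaged 76.9 FPKM, the meiotic cohesin gene rec8.L 55.9 and the AAA ATPase gene trip13.L, which removes HORMA proteins from paired chromosomes, 32.7. Cyclin A1, which drives the meiotic divisions of male germ cells in the mouse, spread more: ccna1.L had 24.3, 80.0 and 39.6 FPKM. By v10.1 names smc1b.L, a meiotic cohesin subunit, averaged 121 FPKM and syce2.L, of the synaptonemal complex, 94.2 FPKM. The recombinase dmc1.L, named here after its values were seen, had 82.1, 35.7 and 15.1 FPKM, with no library near another.

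Genes of the spermatid nucleus and acrosome had a median of 24.3 FPKM over 13 rows (20.2 FPKM over 21 rows with v10.1 names). Beside sp4-c, the bromodomain gene brdt.L, a reader of acetylated histones in spermatids, had 48.8, 62.6 and 59.1 FPKM. Its row lies on chromosome 4S and is brdt.S in v10.1. The gene spata17.L had 56.5, 72.8 and 76.1 FPKM. Both brdt.L and spata17.L were lowest in control replicate 1. The ubiquitin ligase scaffold cul3 averaged 53.0 FPKM from its L copy and 39.6 FPKM from its S copy. The TBP-like factor gene tbpl1.L, needed for spermatid development in the mouse, averaged 32.7 FPKM.

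Genes of the sperm flagellum formed the broadest germ cell list, with 51 rows, a median of 48.1 FPKM and 46 rows at 10 FPKM or more. The tubulin gene tubb4b.L led with 621, 778 and 610 FPKM. The axonemal genes enkur.L and cfap161.L had 207, 344 and 326 FPKM and 176, 343 and 280 FPKM. Both were lowest in control replicate 1 and highest in control replicate 2. The tektin gene tekt1.L, coding for a filament inside the microtubule doublets, had 127, 203 and 202 FPKM. The radial spoke gene rsph1.L averaged 175 FPKM and ttc25.L, which docks outer dynein arms, 162 FPKM. With v10.1 names for LOC rows the list grew to 98 rows with a median of 43.5 FPKM, and the axonemal genes tcte1.L at 168 FPKM and cfap206.L at 137 FPKM joined its upper end. Near the floor of the list stood tuba8.L at 0.146 FPKM and ak1.L at 0.512 FPKM.

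**Figure D2:**
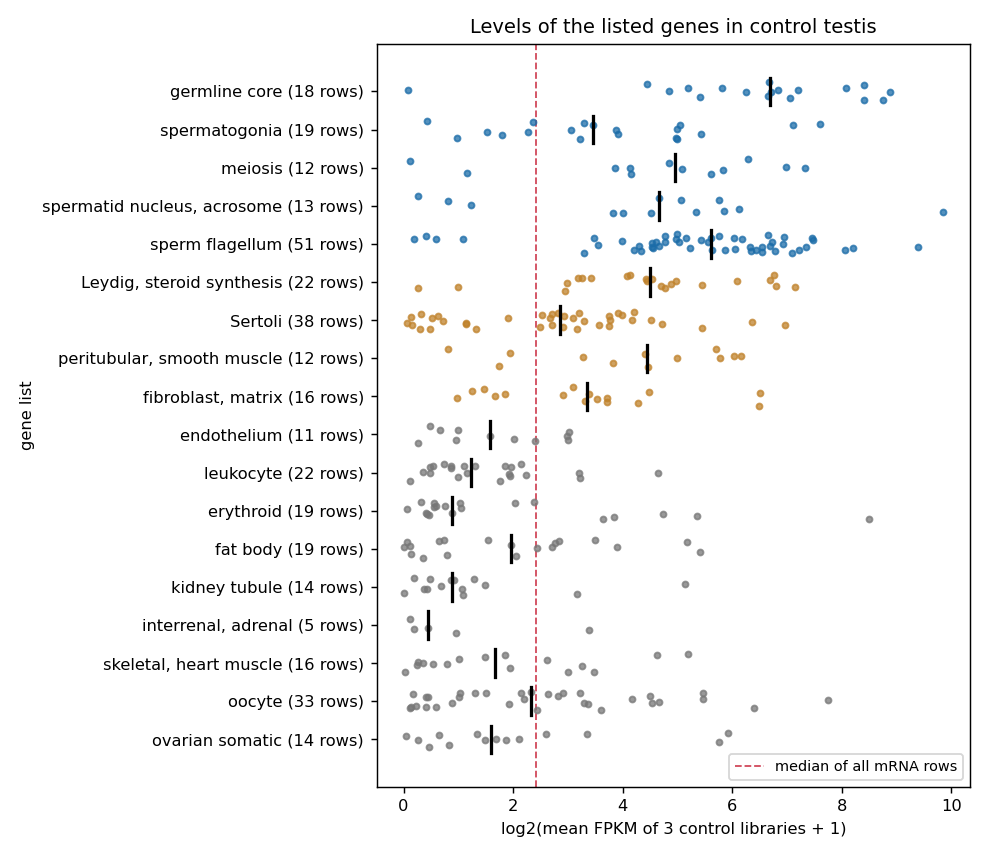
Levels of the listed genes as log2(mean FPKM of the 3 control libraries + 1); each point is 1 mRNA row, the black bar is the list's median and the dashed line is the median of all mRNA rows. Blue lists are germ cells, orange lists are somatic cells of the testis and grey lists are other cells and tissues; germline core (median 102 FPKM) and sperm flagellum (48.1 FPKM) lie furthest to the right.

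Leydig cell and steroid synthesis genes had a median of 21.5 FPKM over 22 rows, 20 of them at 1 FPKM or more. With v10.1 names for LOC rows the median was 15.9 FPKM over 35 rows. The steroid hydroxylase and lyase gene cyp17a1.L, which commits precursors to androgens, had 129, 138 and 157 FPKM. The cholesterol carrier gene star had 64.3, 72.9 and 63.2 FPKM and the hydroxysteroid dehydrogenase gene hsd3b1.L had 48.1, 42.1 and 38.1 FPKM. The libraries lay close for all of these. The outer mitochondrial membrane gene tspo.L averaged 108 FPKM. Its ligand gene dbi averaged 111 FPKM from the row named dbi.L, which lies on chromosome 9_10S and is dbi.S in v10.1, and 102 FPKM from the row named dbi.S, which lies on 9_10L. Aromatase, which turns androgens into estrogens, was near the floor at 0.205 FPKM for cyp19a1.L. It and the following rows were picked after their values were seen. The hormone of Leydig cells annotated as insulin-like 3 had 424, 455 and 504 FPKM in LOC108703714 and 130, 143 and 206 FPKM in LOC108713404, which v10.1 names rflcii.S and rflcii.L.

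Sertoli cell genes had a median of 6.28 FPKM over 38 rows, 29 of them at 1 FPKM or more. The chaperone gene clu.L had 110, 157 and 105 FPKM, and the protease inhibitor gene cst3.L had 81.8, 81.3 and 80.1 FPKM. The inhibin alpha row named inha.S, which lies on chromosome 9_10L, had 44.2, 41.7 and 42.1 FPKM. Both cst3.L and inha.S were almost constant across the libraries. Sox9, a transcription factor of testis differentiation, had 15.05, 19.4 and 17.9 FPKM from its L copy and 14.99, 27.7 and 23.1 FPKM from its S copy, ranges that overlap. Anti-Müllerian hormone, found through v10.1 names, averaged 16.6 FPKM from amh.L and 12.6 FPKM from amh.S. The receptor for follicle-stimulating hormone averaged 7.95 FPKM from fshr.L and 6.67 FPKM from fshr.S. Several genes that mark Sertoli cells in mammals were near the floor, and they too were picked after their values were seen: ptgds.L averaged 0.0453 FPKM, shbg.L 0.437 FPKM, and kitlg.L, the ligand of kit, 0.234 FPKM.

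Peritubular and smooth muscle genes had a median of 20.7 FPKM over 12 rows, and 8.74 FPKM with v10.1 names for LOC rows. The smooth muscle actin row named acta2.S, which lies on chromosome 7L, had 45.8, 91.7 and 73.1 FPKM. LOC100653490 on 7S, which is acta2.S in v10.1, had 65.3, 134 and 119 FPKM. The actin-binding gene tagln.L had 43.1, 74.6 and 74.8 FPKM. Each of these rows was lowest in control replicate 1. Tropomyosin tpm2 averaged 53.5 FPKM from its L copy and 30.6 FPKM from its S copy. Fibroblast and matrix genes had a median of 9.24 FPKM over 16 rows (6.39 FPKM over 36 rows with v10.1 names). They were led by vimentin with 88.7 FPKM from vim.L and 90.5 FPKM from vim.S. Fibronectin fn1.S averaged 21.3 FPKM and the matrix protein gene sparc.S 18.5 FPKM.

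Markers of other cells and tissues were mostly below the median row. Endothelial genes had a median of 1.97 FPKM over 11 rows and leukocyte genes 1.36 FPKM over 22 rows, with pecam1.L, an endothelial adhesion gene, at 6.96 FPKM and cd74.S, the invariant chain of antigen presentation, at 24.2 FPKM. Kidney genes had a median of 0.850 FPKM over 14 rows and interrenal genes 0.371 FPKM over 5 rows (0.661 FPKM with v10.1 names). The endocytic receptor lrp2.L of kidney tubules, at 34.2 FPKM, and chga.S of secretory granules, at 9.47 FPKM, were the exceptions at the upper end of each. The water channel aqp2.S and the fat regulator pparg.L were listed at 0 in all 3 libraries. Fat body genes had a median of 2.88 FPKM over 19 rows, led by cidec.S at 41.6 FPKM.

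Globin genes of red blood cells spread widely between the libraries. The globin gene hbg1.L had 244, 614 and 220 FPKM, and hba1.S had 37.4, 68.5 and 13.7 FPKM. Control replicate 2 was highest for both, but lowest for the globin gene hba2.L, with 6.66, 2.45 and 3.54 FPKM. The erythrocyte membrane protein gene epb41.L was level at 23.7, 26.3 and 26.7 FPKM. Of the 19 erythroid rows, 4, 12 and 3 were highest in control replicates 1, 2 and 3. Of all 31598 mRNA rows, 9705 were highest in control replicate 2. Over the 19 erythroid rows, whose median was 0.849 FPKM, the summed level was 336 FPKM in control replicate 1, 762 in control replicate 2 and 292 in control replicate 3. Skeletal and heart muscle genes, 16 rows with a median of 2.21 FPKM, summed to 79.9, 156 and 65.4 FPKM. This sum was also highest in control replicate 2, but the rows did not share that order. Of the 16 rows, 7, 7 and 2 were highest in control replicates 1, 2 and 3. The highest row of the list, named ckm.S but on chromosome 8L, had 35, 70.9 and 1.14 FPKM and weighed heavily in the sum. LOC108700198 on 8S, which is ckm.S in v10.1, averaged 3.34 FPKM. The part of blood and muscle in other differences between the libraries was not tested.

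Genes known from the oocyte were measured at a median of 3.99 FPKM over 33 rows. The mitotic and meiotic cyclin ccnb1 led with 130, 323 and 191 FPKM. The germ cell transcription factor figla.L, known for activating zona pellucida genes in the ovary, had 91.9, 75.8 and 81.5 FPKM. The deadenylase partner btg4.S had 22.9, 62.9 and 44.5 FPKM and the translation regulator cpeb1.S had 60.8, 29.1 and 40.2 FPKM. These spread in opposite ways: btg4.S was highest and cpeb1.S lowest in control replicate 2. Ovarian somatic genes had a median of 2.02 FPKM over 14 rows (1.21 FPKM with v10.1 names), and foxl2.S, the ovary-determining transcription factor, averaged 0.0293 FPKM.

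The 25 rows of sex-determining genes had a median of 5.55 FPKM (3.36 FPKM with v10.1 names). Of these 25 rows, those of dmrt1 and sox9 led, followed by map3k4.S at 13.2 FPKM and the Polycomb gene cbx2.L at 13.0 FPKM. Among rows found through v10.1 names, cbx2.S averaged 25.4 FPKM, above both sox9 copies, six4.L 18.9 FPKM and amh.L 16.6 FPKM. DM-W, the female-determining gene on the W chromosome of this species, has the row xdm-w in the table, and it was listed at 0 in all 3 libraries. Nuclear and membrane receptors for hormones and growth factors had a median of 6.12 FPKM over 47 rows, none of which reached 100 FPKM. They were led by the retinoid X receptor rxrb, with 50.6 FPKM from its L copy and 33.3 FPKM from its S copy, and by tgfbr1.S with 37.3 FPKM. The androgen receptor ar.L was measured at 4.62 FPKM and the estrogen receptor esr1 at 7.58 FPKM from its L copy and 2.63 FPKM from its S copy.

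Genes of the cell cycle had a median of 32.1 FPKM over 59 rows, 58 of them at 1 FPKM or more. The replication clamp pcna.L had 164, 147 and 146 FPKM and the mitotic kinase cdk1.L had 109, 185 and 150 FPKM. The anaphase activator cdc20.L followed the same order as cdk1.L, with 86.9, 153 and 136 FPKM. Kinetochore genes nuf2.L and spc24.L averaged 120 and 107 FPKM. The germline chromatin list, with a median of 23.9 FPKM over 27 rows, was led by the histone variant row h3f3b.L at 180 FPKM, the histone chaperone npm1.L at 130 FPKM and the chromatin assembly factor chaf1b.L at 120 FPKM.

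In energy metabolism the nuclear genes of the respiratory chain had a median of 105 FPKM over 71 rows, above the 21.1 FPKM of 33 glycolysis rows. With v10.1 names for LOC rows the medians were 83.7 FPKM over 116 rows and 22.3 FPKM over 40 rows. Among the respiratory chain genes, cox7b.L averaged 296 FPKM and ndufs5.L 262 FPKM. Some rows listed above them are short unplaced pieces with few reads: cox6b1.S_2 reached 698 FPKM from a mean of 15.3 reads, uqcrq.S_2 592 FPKM from 209 reads and ndufa4.L_2 415 FPKM from 7.67 reads. In glycolysis gapdh.L had 343, 298 and 302 FPKM and the pyruvate kinase row pkm had 209, 242 and 203 FPKM. Lactate dehydrogenase averaged 48.2 FPKM from the row named ldha.L and 72.0 FPKM from the row named ldhb.L, which lie on S chromosomes. Of the mitochondrial genes, ND4L was listed at 0 in all 3 libraries, and the file gives it the same position as ND4, which averaged 4.90 FPKM.

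Stress and detoxification genes had a median of 41.4 FPKM over 36 rows (27.7 FPKM over 49 rows with v10.1 names). The glutathione peroxidase gpx4.L, a selenoprotein that also forms part of the sperm midpiece in mammals, was level at 227, 234 and 222 FPKM. The axonemal co-chaperone dnajb13.S was not, with 140, 297 and 221 FPKM. Splicing factors and RNA-binding proteins that bear on circular RNA formation in other animals had a median of 34.4 FPKM over 30 rows, led by ilf2.L with 295, 197 and 239 FPKM.

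Germ cell lists did not move together across the 3 libraries. Of the 51 flagellum rows, 41 were lowest in control replicate 1 and 34 were highest in control replicate 2; among all 10790 rows with a mean of 10 FPKM or more, 3732 were lowest in control replicate 1 and 3281 were highest in control replicate 2. The mean log2(FPKM + 1) of the flagellum list was 5.03, 5.56 and 5.46 in control replicates 1, 2 and 3. The means of the germline list ran the other way, at 6.54, 6.28 and 6.41. The meiosis list was nearly level over its 12 rows, with means of 4.58, 4.57 and 4.62. With v10.1 names for LOC rows it was less so, with means of 4.44, 4.27 and 4.28 over 30 rows. Of these 30 rows, 17 were highest in control replicate 1, against 4976 of the 10790 rows. The lowest library was control replicate 2 for 17 of the 30, against 5175 of the 10790 rows. Both counts stand near the share over all those rows and do not set the meiosis list apart. Control replicate 2 was also lowest for 11 of 18 germline rows, again near that share. For germline chromatin it was lowest in 22 of 27 rows, above that share. Ribosomal protein rows were lowest in control replicate 3 in 70 of 100 cases, against 1883 of 10790 rows. The share of cell types was not measured, and its part in these differences was not tested.

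**Figure D3:**
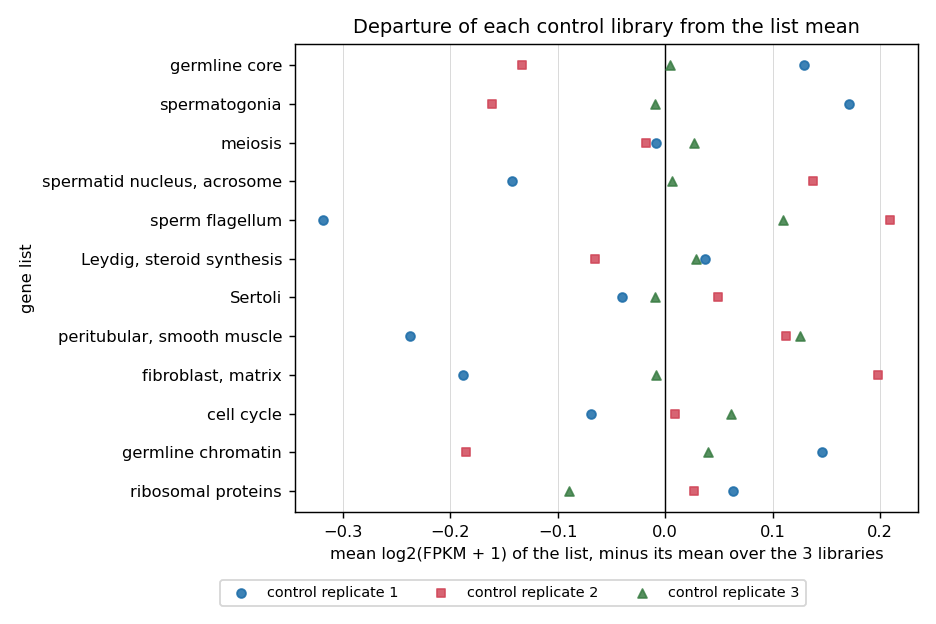
Mean log2(FPKM + 1) of each list in each control library, minus the mean of the 3 libraries; 1 point per library. Control replicate 1 is lowest for sperm flagellum (5.03 against 5.56 and 5.46 in control replicates 2 and 3) and highest for germline core (6.54 against 6.28 and 6.41).

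Among rows with a mean of 10 FPKM or more, the median SD of log2(FPKM + 1) over the libraries was 0.18, and 35 rows had an SD above 1. Control replicates 1 and 2 differed by over 2-fold in 454 of these rows, 1 and 3 in 152, and 2 and 3 in 92. The widest spread was that of the muscle creatine kinase row ckm.S, on chromosome 8L, with 35, 70.9 and 1.14 FPKM. The keratin gene xk81a1.L had 0.176, 29.5 and 15 FPKM, and the troponins tnnt1.S and tnni3 had 1.43, 35.2 and 27.1 FPKM and 0.468, 16.7 and 13.2 FPKM. Each of these was close to the floor in 1 library. An uncharacterized gene, LOC108699357 on chromosome 8L, was instead low in control replicate 2, with 92.0, 3.76 and 85.6 FPKM. The apolipoprotein row LOC108696721 (apoc1.L in v10.1) had 37.5, 61.4 and 5.27 FPKM.

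The L and S chromosome sets were used to similar degrees per gene, with somewhat more output from the L set, which holds more genes. The L set has 16892 placed rows and the S set 11946. Of these, 68.6% on L and 68.2% on S reached 1 FPKM, and the median rows stood at 4.64 and 4.36 FPKM. The L set held 56.5%, 56.1% and 56.6% and the S set 43.5%, 43.9% and 43.4% of the FPKM of placed rows in control replicates 1, 2 and 3. The suffix of a symbol does not always match its chromosome in the file: of 9241 rows where both are known, 949 (10.3%) differ.

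Copies of the same gene were compared within each library. By deposited symbols, 612 pairs had 1 row per copy and a summed mean of at least 2 FPKM. Their median L share of the summed FPKM was 51.6%, 52.5% and 51.4% in the 3 libraries, or 51.9% ± 0.574 (SD, n = 3). Most copies were not called over 2-fold apart. The test was limma's treat against a 2-fold difference of log2(FPKM + 1), two-sided, with Benjamini-Hochberg adjustment over all pairs. It called the L copy higher in 79 pairs (12.9%) and the S copy higher in 51 pairs (8.33%). In 18 pairs the L copy held 90% or more of the sum, and in 9 pairs 10% or less. Both suffixes ran against the chromosomes in 85 pairs, and 9 pairs lie on chromosomes of other numbers and may not be copies of 1 gene. L and S copies are alike in sequence, and no source used here gives the authors' treatment of reads that fit both.

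Among pairs formed by deposited symbols, the largest excess of an L copy was in ndrg4. Its L row had 150, 132 and 147 FPKM and its S row 5.73, 4.0 and 6.44 FPKM. The S row lies on chromosome 4L and is named ndrg3.S in v10.1, so these rows may not be copies of 1 gene. Next came sh3bgrl2, whose L copy averaged 98.0 ± 2.00 FPKM and whose S copy 3.45 ± 1.14 FPKM (SD, n = 3), a log2 ratio of 4.51 ± 0.159 (SE) with a limma adjusted p of 1.52e-05. The calcium-dependent membrane binding annexin gene anxa4 followed with 81.6 and 2.92 FPKM. The cell cycle regulator spdyc, of the Speedy/RINGO family that activates Cdk kinases, averaged 26.5 FPKM from its L copy and 0.807 FPKM from its S copy. None of these S copies came within reach of its L copy in any library.

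Of the other L-high pairs, kiaa2013 compares rows that differ 15.8 times in length. For ip6k2 (61.0 FPKM for the L symbol, 4.55 for the S symbol) and dpp8 (24 and 1.24 FPKM) the suffixes are opposite to the chromosomes, so by chromosome the S copy is the higher. Keratin 18, krt18, had 12.5 FPKM from L and 0.555 FPKM from S, the general transcription factor gtf2b 63.3 and 7.2 FPKM, and the red cell factor gata1 13.3 and 0.472 FPKM. Its L copy spread widely, at 3.92, 26.1 and 9.98 FPKM.

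Among pairs formed by deposited symbols, the largest excess of an S copy was in btg4. Its L copy had 0.390, 0.479 and 2.15 FPKM and its S copy 22.9, 62.9 and 44.5 FPKM. Its log2 ratio was -4.46 ± 0.289 (SE), with a limma adjusted p of 0.000134. The mitochondrial carrier slc25a46 had 0.340 FPKM from L and 15.7 FPKM from S, the sugar amine kinase fn3krp 0.312 and 14.2 FPKM, and the ETS factor elk4, whose rows differ 2.89 times in length, 10.6 and 132 FPKM. Insulin-like growth factor igf2 had 4.08 and 38.8 FPKM, but its rows differ 3.96 times in length. The adhesion gene epcam had 4.17 and 30.9 FPKM, the reticulon rtn4 17.6 and 109 FPKM, the ubiquitin-binding gene ubxn1 11.6 and 69.6 FPKM and selenbp1 1.82 and 12.3 FPKM. Adenylate kinase ak1, with 0.512 and 22.1 FPKM by symbol, has its L symbol on chromosome 8S and its S symbol named ak1.L in v10.1, so the direction turns with the naming. All 20 of these pairs kept their call when any 1 library was left out.

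**Figure D4:**
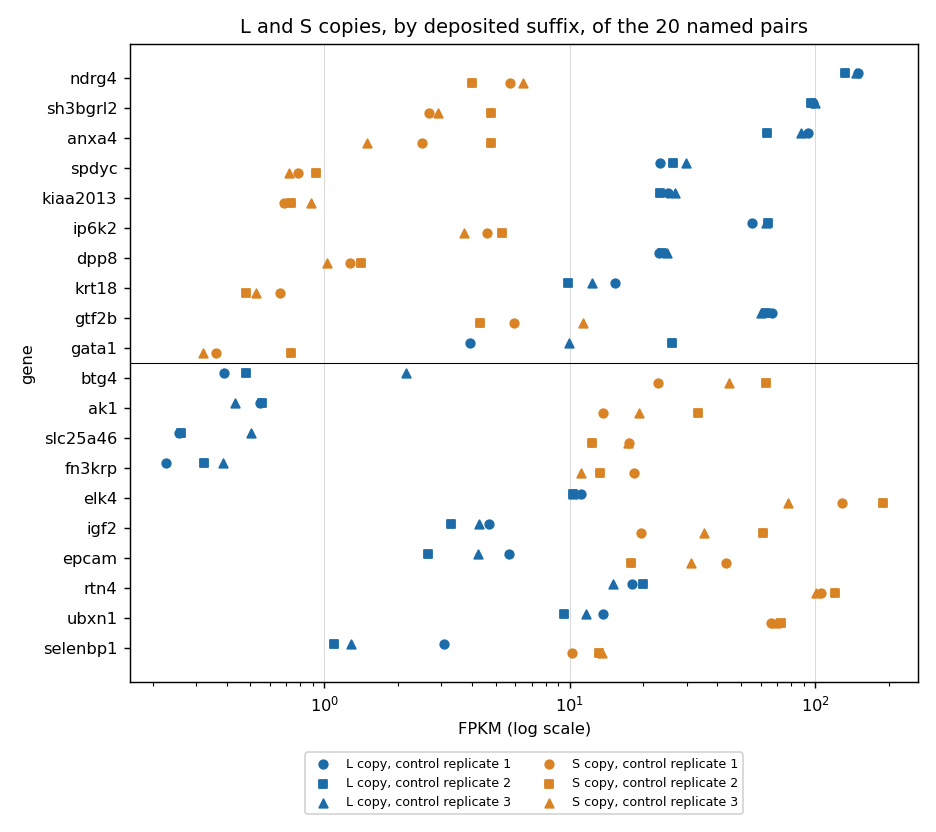
FPKM (log scale) of the L copy (blue) and the S copy (orange), named by the deposited suffix, in the 3 control libraries; above the line are the 10 pairs with the L copy higher, below it the 10 with the S copy higher. In every named pair the copies' values do not overlap; sh3bgrl2 had means of 98.0 FPKM from L and 3.45 FPKM from S, and btg4 1.01 FPKM from L and 43.4 FPKM from S.

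Among testis genes with a pair by symbol, dmrt1 was called L higher, with 137 FPKM from L and 42.1 FPKM from S, a log2 ratio of 1.69 and a limma adjusted p of 0.00184. The pairs of ybx2, kit, sox9, gata4, wt1, dhh, cul3, ldha, ldlr and dbi were not called. Of 10 cell cycle pairs 3 were called, all L higher: aurkb (77.9 and 12.3 FPKM), mcm7 (50.79 and 14.05 FPKM) and nuf2 (120 and 33.6 FPKM). Over all pairs 12.9% were called L higher and 8.33% S higher, and with v10.1 names and chromosome naming 4 of 21 cell cycle pairs were L higher and 1 S higher. Antioxidant gpx4 was also L higher, with 228 FPKM from L and 35.8 FPKM from S. Among 8 receptor pairs, prolactin receptor prlr alone was called, with 8.29 and 2.38 FPKM. The transferrin gene tf, lactate dehydrogenase ldhb and egg coat gene zp4 were called as well, but their suffixes are opposite to their chromosomes and the direction turns when chromosomes name the copies.

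More pairs could be formed with v10.1 gene names and with copies named by their chromosome, a choice made after the data were seen. It gave 4817 pairs, of which 614 (12.7%) were called L higher and 348 (7.22%) S higher, with a median L share of 52.9%. The largest L excess of this naming was in ttc29, with means of 77.8 FPKM from L and 0.0828 FPKM from S. Its largest S excess was in sh3bgrl3, with an L copy listed at 0 and 130 FPKM from S. Both exceed the largest by deposited symbols. With v10.1 symbols for LOC rows alone the shares called were 13.3% and 7.15% of 4670 pairs, with v10.1 symbols for all rows 12.9% and 7.2% of 5198, and with deposited symbols and chromosome naming 13% and 9.41% of 563. Without the 2-fold margin limma called 40.5% L higher and 33.5% S higher of the 612 pairs, at an adjusted p below 0.05. With v10.1 gene names and chromosome naming, 10 of 40 respiratory chain pairs (25%) were L higher and 3 (7.5%) S higher. Over all 4817 pairs of this naming the shares were 12.7% and 7.22%, which also stand beside the list counts that follow. Among them cox7b had 296 FPKM from the L chromosome and 86.5 FPKM from the S chromosome, and uqcrb 33.0 and 257 FPKM. Called copies of this chain thus lay on both sets. Of 46 ribosomal protein pairs 4 were L higher and 1 S higher. Of 17 Sertoli pairs 4 were L higher, among them the gap junction gene gja1 (8.84 and 0.584 FPKM) and the activin subunit inhba (5.18 and 0.504 FPKM). The 10 steroid synthesis pairs had L shares between 26.9% and 68.3%. Of 11 flagellum pairs tekt1 alone was called, with 177 FPKM from L and 10.099 FPKM from S, a log2 ratio of 4.15 and a limma adjusted p of 9.03e-05. The peroxiredoxin prdx5 (87.3 and 2.02 FPKM) and the meiotic nuclease spo11 (4.45 FPKM and a copy listed at 0) were also L higher. The motor adaptor hook1 (6.73 and 43.8 FPKM), the replication clamp pcna (57.1 and 153 FPKM) and the chromatin factor uhrf1 (24.9 and 91.4 FPKM) were S higher. Copies here are named by chromosome, and the row named pcna.L above is not the L copy of the pcna pair.

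Long non-coding RNAs (lncRNAs) were far lower than mRNAs. The lncRNA table holds 3559 transcripts, of which 1021 (28.7%) had a mean of 1 FPKM or more, with 984, 997 and 994 in the separate libraries. They made up 2.32%, 2.51% and 2.42% of the FPKM of both tables. Of the file's classes, bidirectional lncRNAs, which start head to head with a gene, had the highest median of the classes with more than 10 members, 0.887 FPKM over 311 transcripts, and 46.6% of them reached 1 FPKM. Intergenic lncRNAs had a median of 0.240 FPKM over 2579 transcripts (27.1%), natural antisense ones 0.301 FPKM over 268 (33.6%), intronic antisense ones 0.150 FPKM over 276 (20.7%) and those within introns on the gene's strand 0.280 FPKM over 117 (23.1%). No source used here gives whether the counting used strand, so antisense values may hold reads of the partner gene.

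The top of the lncRNA ranking was held by an intergenic pair on chromosomes of the same number. LOC108708564, on the minus strand of chromosome 2L at 138621487 to 138624537, had 1328, 1349 and 1210 FPKM. LOC108709832, on the minus strand of chromosome 2S at 120205225 to 120208332, had 1168, 1078 and 1009 FPKM. Together they held 17.3%, 15.5% and 15.2% of all lncRNA FPKM, and both would stand among the 41 rows at 1000 FPKM in the mRNA table. Their spread between libraries was small.

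Below them LOC108705922, unplaced, had 447, 475 and 537 FPKM and LOC108701478, on chromosome 9_10L, had 418, 396 and 402 FPKM. LOC108699856, on chromosome 8S, spread widely with 167, 463 and 232 FPKM, as did LOC108704372, unplaced, with 222, 422 and 262 FPKM. Both were highest in control replicate 2. LOC108707692 reached 313 FPKM from a mean of 30.3 reads, since its transcript has 137 bases. LOC108704350 averaged 288 FPKM and LOC108713856 averaged 243 FPKM.

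The highest bidirectional lncRNA, LOC108698556 on chromosome 8L at 51877751 to 51881160, had 239, 290 and 273 FPKM, while its partner gene LOC108698555 averaged 5.05 FPKM. In most pairs the order was the other way: 25 of 311 bidirectional and 44 of 268 natural antisense lncRNAs stood above their partner. The highest natural antisense lncRNA was LOC108702715, on chromosome 9_10S, at 43.1 FPKM, and the highest intronic antisense one was LOC108717369, on chromosome 5S, at 39.4 FPKM. The highest in an intron on the gene's strand, LOC108703815, averaged 16 FPKM, from a mean of 9.33 reads over 195 bases. The highest that overlaps exons, LOC108718848, averaged 12.1 FPKM from 34.7 reads. Their partner genes averaged 26.1 and 11.8 FPKM, and the part of partner reads in these 2 values was not tested. Of the 1021 lncRNAs, 460 are lncRNAs in v10.1, 130 are protein-coding there and 406 were not matched. The telomerase RNA terc.L, picked after its values were seen, had 285, 146 and 143 FPKM, with control replicate 1 high.

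CircRNAs, closed RNA rings formed by back-splicing, were numerous and mostly rare. Junction reads marked 45325 circRNAs in the 3 libraries, with 17703, 21453 and 16486 in control replicates 1, 2 and 3. No junction count of 1 is in the table, so the smallest count is 2, and between 58.4% and 60.2% of the circRNAs of a library stood at it. In all 3 libraries 2562 were seen, which is 5.65% of circRNAs but 37.0% of junction reads, while 37570 (82.9%) were seen in 1 library. At this depth a circRNA missing from a library cannot be called absent there. Exonic rings made up 77.1% of junction reads, rings on the gene's strand that are not bounded as exonic, the file's sense overlapping class, 15% and intergenic ones 5.77%. The 100 highest circRNAs held 9.97% of junction reads.

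The most abundant ring lies in the polyubiquitin gene LOC108707155 (ubc.S in v10.1), on the plus strand of chromosome 1S at 133019271 to 133020182. It had 623, 976 and 592 junction reads, or 89.8, 113 and 96.7 per 10000. Its length of 912 bases is 4 times the 228 bases of a ubiquitin repeat. Of 10 rings in polyubiquitin rows of the table, 9 have a length that is a whole multiple of that repeat. A repeat can give a junction read without back-splicing, and whether it did so here was not tested.

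The next ring, in LOC108709261 on chromosome 2S, had 233, 169 and 190 junction reads. A ring of the Vasa gene ddx4.L, on the minus strand of chromosome 1L at 195231912 to 195233603, had 140, 138 and 82 reads, so the same germline gene ranked high as mRNA and as circRNA. The ring of the helicase gene ddx17.L spread most among the 12 highest, with 264, 176 and 4 reads. That of the sorting nexin snx15 had 74, 243 and 128 reads, and that of the tubulin cofactor tbca.S had 122, 112 and 84 reads. An intergenic ring on chromosome 6S had 114, 42 and 161 reads. The rings of LOC397725 (cfb.L in v10.1), with 107, 136 and 121 reads, and of the chromatin remodeller LOC108703262 (srcap.S in v10.1), with 110, 148 and 93 reads, were steadier. Those in LOC108704939, LOC108719236 and the histone-binding gene LOC108709624 made up the rest of the 12, at 15.6, 14.0 and 14.0 reads per 10000.

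**Figure D5:**
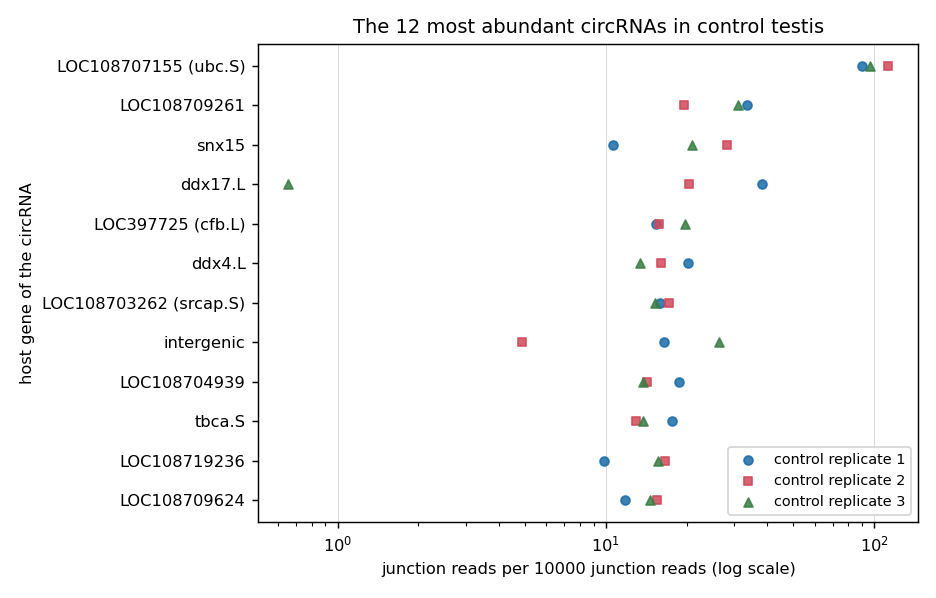
Junction reads per 10000 junction reads (log scale) of the 12 most abundant circRNAs in each control library, named by host gene. The polyubiquitin ring stands apart at 89.8, 113 and 96.7 per 10000, and the ddx17.L ring is low in control replicate 3 (4 reads, against 264 and 176 in control replicates 1 and 2).

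Host genes with many rings included genes of the axoneme, centrosome and nuclear envelope. The number of rings was not set against gene length or the number of exons. The gene syne1.L gave 53 different circRNAs, LOC108704017 (the axonemal dynein dnah12.L in v10.1) 49, the centriolar satellite gene pcm1.L 41, LOC108708385, described as a cilia- and flagella-associated protein, 40, and LOC108711291 (vps13c.L in v10.1) 39. Few of these recurred: pcm1.L had 7 in all 3 libraries and syne1.L 1. Of germ cell genes, brdt.L gave 30 circRNAs, 8 of them in all 3 libraries, and the acrosomal gene zpbp2.L gave 7, whose junction reads summed to 143, 121 and 74 although its mRNA averaged 13.1 FPKM. The antiviral editing enzyme gene adar.S gave 9, with 122, 138 and 128 reads. Among the 13638 host genes, all of which have at least 1 ring, the Spearman correlation of mRNA level with the number of rings was 0.27, a description over genes that share the same 3 libraries.

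A ring was seen for 43.6% of all mRNA rows, 65.2% of rows with a mean of 10 FPKM or more and 15.7% of rows below 1 FPKM. Among the 100 highest mRNA rows, mostly short ribosomal protein genes, 32 had a ring. The L set held 27484 placed circRNAs (63.6%) and the S set 15738 (36.4%). Of the mRNA rows on each set, 46.4% on L and 43.3% on S had a ring.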

How the data were processed

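Per the labels' protocols, rRNA-depleted stranded libraries were made from testis RNA of 3 control samples. The submitters' processing notes list HISAT2, Bowtie2 and CASAVA 1.8 without saying what each did. No source used here gives the genome build, annotation, quantifier or circRNA caller. File coordinates are printed, counted from 1.

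The authors deposited FPKM per mRNA row and lncRNA transcript, per the file headers. Beside it they deposited a signal headed as counts, which is not whole. Its values are whole multiples of a step per library in 99.8% of cases (tolerance 0.02), from which reads were estimated, and no count test was run on it. The circRNA table holds raw junction counts and log2 normalized values, deposited by the authors; the counts were used.

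Levels were described as means, SDs and counts at 1 FPKM. L and S copies were tested with limma 3.58.1 (R 4.3.3), treat at 2-fold, on log2(FPKM + 1), with adjusted p below 0.05. On simulated data over 612 pairs, all with the same noise, it called 86% of 3-fold, 100% of 8-fold and 0% of unchanged pairs. Real pairs differ in noise, so these shares need not hold for them. Unchanged pairs lie far inside the 2-fold margin, so the 0% does not give the rate of false calls near it. TMM factors of edgeR 4.0.16 served 1 alternative on junction counts.

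Of the mRNA rows, 20208 (64.0%) carry only a LOC number. Of these, 11214 have a symbol in the RefSeq v10.1 table, which was used for names, never for coordinates. The libraries were taken by their labels, but the subject and the lists were chosen with earlier results of these data known. Named genes were the 25 highest mRNA rows, up to 6 rows of each list and some of its markers at or near 0. Named pairs were 10 called in each direction with a summed mean of 10 FPKM and any pair in the lists. With v10.1 names and chromosome naming, the largest pair in each direction was named too. Some of the 10 widest-spread rows were named, but not all. The 10 highest lncRNAs and those of each class, the 12 highest circRNAs and the 5 hosts with most rings were named too. The hosts brdt.L, zpbp2.L and adar.S were named beside these 5. A library left out in turn, other pseudocounts, filters and namings were alternatives. Naming copies by chromosome, and v10.1 names for all rows, were added after seeing the data.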

Additional observations from a re-analysis of the deposited data

How the results depend on the processing

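The count of L and S pairs called over 2-fold apart, 130, moved with which pairs were formed and with the question asked. Against no difference, limma's eBayes called 453 of the same 612 pairs (248 L higher, 205 S higher). With v10.1 symbols for LOC rows 953 pairs were called (619 L, 334 S), with v10.1 symbols for all rows 1043 (669 L, 374 S), with copies named by chromosome as well 962 (614 L, 348 S), and with only pairs of rows of like length 77 (49 L, 28 S). The last 4 settings test more or fewer pairs. The median L share moved to 53.1%, 52.9%, 52.9% and 52.8% in the same 4 settings, and to 52.6% for deposited symbols with copies named by chromosome. A pseudocount of 0.1 (142 calls), no filter on low values (128) and chromosome naming alone (126) stayed within 1.5 times. Leaving out 1 library gave 111 to 124 calls (66 to 72 L, 45 to 52 S), a median L share of 51.4% to 52.8% and 3836 to 4745 circRNAs in all remaining libraries, which by construction rise with fewer libraries. The 100 highest mRNA rows held 8.5% by reads not divided by length, against 19.5% of FPKM. At 0.1 FPKM 2321 lncRNAs were counted, against 1021 at 1 FPKM. With 5 or more junction reads in every library 918 circRNAs were left of 2562. A list median of log2(FPKM + 1) was said to move when it shifted by at least its SD between libraries. Of 29 such medians, 17 moved with v10.1 names, and 3, 7 and 2 without control replicates 1, 2 and 3. A filter at 0.5 FPKM moved 15, but by construction medians cannot fall when low rows are dropped. A pseudocount of 0.1 moved 11 on the log scale, but it does not enter the medians given above in FPKM. Depth limits single circRNAs, since most of those in a library stand at 2 reads. No paired analysis was possible because only the control group was used; each L to S ratio was taken within a library.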

Other observations

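Chromosome 7 stood apart from the other chromosomes in both sets. On 7L 956 of 1590 rows (60.1%) and on 7S 603 of 1005 rows (60%) reached 1 FPKM, against between 63.8% (3L) and 74.7% (4L) on the other nuclear chromosomes. Their median rows were at 2.35 FPKM on 7L and 2.80 FPKM on 7S, against 3.65 FPKM or more elsewhere. These are values of the same 3 libraries, given without a test. Unplaced sequences, with 2747 mRNA rows, held 10.4% of FPKM at a median row of 2.26 FPKM.

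The relaxin family had more members at measurable levels than the insulin-like 3 rows alone. LOC108705369 (rflb.S in v10.1), described as relaxin-3-like, had 35.5, 29.9 and 29.8 FPKM, and LOC108714264 (rflb.L) had 18.3, 9.04 and 15.2 FPKM. A relaxin receptor 2-like row, LOC108704519, had 3.99, 4.92 and 4.84 FPKM. A further relaxin-3-like row, LOC108710643, was listed at 0 in all 3 libraries. Among lncRNA rows, LOC446970 (marchf7.L in v10.1) spread with the libraries at 5.70, 86.3 and 52.3 FPKM.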
